A study of Mus musculus with 12 samples.

Results

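Immediate early genes are transcribed within minutes of a stimulus without the need for new protein, and in neurons their transcripts are used as a readout of recent activity. Calcium entry and ERK signalling act on factors already bound at their promoters, among them CREB at cyclic AMP response elements and serum response factor at CArG boxes. Most of the encoded proteins are transcription factors that act on later genes, while Arc is an effector at synapses. In the hippocampus, Arc, Egr1 and Fos are known for their part in the storage of memory, and their transcripts decay soon after a stimulus ends.

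The 10 genes described here were chosen by symbol: Fos, Fosb, Junb, Egr1, Egr2, Egr4, Arc, Npas4, Nr4a1 and Ier2. All 10 were found among the 27978 genes of the deposited file, and 9 of them, all but Egr2, were among the 12559 genes tested, whose mean reached 1 FPKM (fragments mapped to a gene, per kilobase of its transcript and per 1000000 fragments mapped in all). The data are RNA-seq profiles of hippocampal tissue from mice after fecal microbiota transplantation (FMT), the transfer of gut microbes by stool, in 12 libraries. The groups are FMT-SP, FMT-DSS and FMT-CON with 4 libraries each, and all of them carry a transplant. The SP of FMT-SP stands for the neuropeptide substance P, and the series' design text names that group FMT-DSS+SP. The labels do not spell out CON or DSS, and the strain, sex, age and donor, the route and time of substance P and the time of tissue collection are likewise not stated there. Whether the libraries come from different animals is not stated either, and p-values therefore measure only the spread between these samples, which may be technical.

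FPKM is a level per length, so levels may be compared between genes. Depth was estimated from the steps of low values at 31.5 to 37.2 M fragments (M, 1000000) a library. Defining markers of the labelled tissue were measured, with all 8 dentate granule cell, 7 CA1 and 6 CA3 markers of the lists among the tested genes. Several libraries stood apart in other ways. FMT-CON 3 held pituitary hormone transcripts, with a summed level of 3581 FPKM over 5 listed markers, mostly Gh at 2899 and Prl at 621 FPKM. The same sum was 2.04 to 23.7 FPKM in FMT-SP, 2.99 to 7.29 in FMT-DSS and from 9.67 upwards in FMT-CON, and Pitx1 and Cga were listed at 0 in some libraries. FMT-DSS 3 had the highest sum of 10 striatal markers, at 438 FPKM, against ranges of 74.1 to 150 in FMT-SP, 100 to 438 in FMT-DSS and 83.2 to 218 in FMT-CON. FMT-CON 1 had the highest sum of 7 thalamic markers, 206 FPKM, against 12.8 to 105 in FMT-SP and 19.3 to 42.6 in FMT-DSS. It had the lowest sum of 6 excitatory neuron markers, 1058 FPKM, against 1595 to 1998 in FMT-SP and 1573 to 1924 in FMT-DSS. The sum of 12 choroid plexus markers was 18.5 to 3860 FPKM in FMT-SP, 1312 to 2943 in FMT-DSS and 31.2 to 3627 in FMT-CON. FMT-DSS 2 and FMT-DSS 4 had 285 and 30.6 FPKM of Lcn2, an acute-phase gene, and 1.12 and 2.20 FPKM of Cx3cr1, a microglial receptor. Lcn2 was next highest in FMT-CON 3 and FMT-CON 4, at 23.6 and 22.5 FPKM, and at most 8.91 FPKM in the remaining libraries. Cx3cr1 was at 7.37 to 13.9 FPKM outside FMT-DSS 2 and FMT-DSS 4. The sum of 10 microglial markers was 139 FPKM in FMT-DSS 2 and 92.9 in FMT-DSS 4, with 137 to 166 in FMT-SP, 92.9 to 153 in FMT-DSS and 136 to 164 in FMT-CON. A sum is weighted to the abundant markers. On log2(FPKM + 1), with each marker centred on its mean over the libraries, the 10 averaged -0.76 in FMT-DSS 2 and -0.83 in FMT-DSS 4. That average was -0.035 or above in every other library. FMT-DSS 4 also had the lowest sum of 6 astrocyte markers, 198 FPKM, and the highest mitochondrial share of FPKM, 29.0%. In bulk tissue, fewer cells of a type and less RNA per cell cannot be told apart.

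Windows from the RefSeq promoter table for the build GRCm38.p6 were used for 7 of the 10 genes, 11 windows in all since Egr2 has 5 start sites. The 250 bases before each start site were searched on both strands. The core TGACG of the cyclic AMP response element, written CGTCA on the other strand, was present in at least 1 window of each of the 7, against 17.8% of the 32851 windows of the table. Here and below, the 7 are counted per gene and the shares of the table per window, so Egr2 with 5 windows had more ways to match. In Egr2 the core was found only at start sites 3, 4 and 5. The full palindrome TGACGTCA, which contains that core, was in 0 of the 7 and in 1.55% of all windows. A CArG box, the serum response factor element, was found only at Egr2 among the 7, and in 1.47% of all windows. An AP-1 site (TGANTCA), bound by FOS and JUN proteins, was in 0 of the 7 and in 6.75% of all windows. An EGR site (GCGNGGGCG) was in 2 of the 7, Fosb and Nr4a1, and in 4.70% of all windows. TATAAA was in 1 of the 7, Fos, and in 12.4% of all windows. Some of these windows are shown from 5′ to 3′ on the strand of the gene, each ending at the base before the start site. Capitals mark the core in either orientation and, in Egr2, the CArG box.
Fos, chr12:85473640-85473889, plus strand: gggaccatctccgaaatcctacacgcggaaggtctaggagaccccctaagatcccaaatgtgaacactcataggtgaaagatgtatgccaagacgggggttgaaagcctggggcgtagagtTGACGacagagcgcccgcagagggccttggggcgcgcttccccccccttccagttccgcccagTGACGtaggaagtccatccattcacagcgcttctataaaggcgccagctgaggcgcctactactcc
Egr2 at start site 3 of 5, chr10:67537619-67537868, plus strand: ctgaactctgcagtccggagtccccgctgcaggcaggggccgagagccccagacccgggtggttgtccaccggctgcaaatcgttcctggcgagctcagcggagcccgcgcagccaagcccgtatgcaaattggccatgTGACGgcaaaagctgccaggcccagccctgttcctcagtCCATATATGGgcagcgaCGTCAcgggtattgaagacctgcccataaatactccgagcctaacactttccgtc
Egr4, chr6:85513590-85513839, minus strand: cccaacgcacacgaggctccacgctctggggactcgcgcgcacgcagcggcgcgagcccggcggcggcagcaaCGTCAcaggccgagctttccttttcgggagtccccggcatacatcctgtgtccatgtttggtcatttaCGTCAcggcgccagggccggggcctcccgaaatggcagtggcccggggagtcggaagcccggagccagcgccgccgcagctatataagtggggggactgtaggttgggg
Npas4, chr19:4989972-4990221, minus strand: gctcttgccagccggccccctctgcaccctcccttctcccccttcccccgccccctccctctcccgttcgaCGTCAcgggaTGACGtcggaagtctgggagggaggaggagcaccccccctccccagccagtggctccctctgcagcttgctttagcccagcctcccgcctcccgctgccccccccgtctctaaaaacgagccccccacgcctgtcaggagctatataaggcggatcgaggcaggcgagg
Nr4a1, chr15:101266596-101266845, plus strand: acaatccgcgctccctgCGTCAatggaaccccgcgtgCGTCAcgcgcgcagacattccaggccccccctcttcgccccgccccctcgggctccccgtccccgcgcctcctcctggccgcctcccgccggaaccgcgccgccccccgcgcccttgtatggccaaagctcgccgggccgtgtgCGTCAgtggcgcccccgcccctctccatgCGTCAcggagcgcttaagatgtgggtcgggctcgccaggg
Counted back from -1 at the base before the start, the TGACG cores of Fos begin at -129 and -66. Those of Npas4 begin at -179 and -169, and those of Egr4 at -177 and -109. The Nr4a1 window held the most, with cores beginning at -233, -213, -69 and -40. In Egr2 the CArG box begins at -72, between cores at -111 and -55. A match is a run of letters and was not tested for binding.

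Fos encodes the founding FOS protein, which pairs with JUN proteins to form AP-1, and lies on chromosome 12 from 85473890 to 85477273 (GRCm38, as are all positions given here). Its level was 3.44, 6.04, 3.90 and 4.90 FPKM in FMT-SP 1 to 4, 6.23, 6.12, 11.9 and 3.58 FPKM in FMT-DSS 1 to 4, and 4.40, 4.08, 15.6 and 2.18 FPKM in FMT-CON 1 to 4. FMT-CON 3 and FMT-DSS 3 were the highest libraries, FMT-CON 4 was the lowest, and the groups overlapped. Means were 4.57 ± 1.15 FPKM in FMT-SP, 6.96 ± 3.51 in FMT-DSS and 6.56 ± 6.08 in FMT-CON (SD, n = 4 each, as for all means of these genes).
Fosb, on chromosome 7 from 19302696 to 19310051, encodes a FOS relative that also gives a stable truncated form. It was at 1.50, 1.26, 0.959 and 1.91 FPKM in FMT-SP 1 to 4, 1.54, 1.72, 3.81 and 1.35 FPKM in FMT-DSS 1 to 4, and 0.984, 1.88, 3.64 and 1.78 FPKM in FMT-CON 1 to 4. Only FMT-DSS 3 and FMT-CON 3 exceeded 1.91 FPKM. Junb, on chromosome 8 from 84974484 to 84978718, encodes a JUN partner of FOS proteins. Its level was 14.9, 18.5, 12.8 and 24.2 FPKM in FMT-SP 1 to 4, 22.5, 23.8, 29.2 and 20.7 FPKM in FMT-DSS 1 to 4, and 10.8, 15.4, 38.6 and 16.4 FPKM in FMT-CON 1 to 4. Here all 4 FMT-DSS libraries lay above FMT-SP 1 to 3 and above every FMT-CON library but FMT-CON 3.

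Egr1, Egr2 and Egr4 encode zinc finger factors of the EGR family that bind GC-rich sites. Egr1 was at 24.5, 35.5, 22.2 and 23.3 FPKM in FMT-SP 1 to 4, 41.7, 15.4, 42.8 and 17.6 FPKM in FMT-DSS 1 to 4, and 24.4, 34.0, 40.0 and 14.2 FPKM in FMT-CON 1 to 4. The FMT-DSS libraries fell at both ends of the range, with FMT-DSS 1 and 3 at the top and FMT-DSS 2 and 4 near the bottom. Egr4, on chromosome 6 from 85511121 to 85513589, was at 5.45, 4.77, 4.99 and 7.45 FPKM in FMT-SP 1 to 4, 6.99, 3.81, 12.7 and 6.71 FPKM in FMT-DSS 1 to 4, and 3.99, 6.61, 13.3 and 4.99 FPKM in FMT-CON 1 to 4. FMT-CON 3 and FMT-DSS 3 were again the highest, and no other library exceeded 7.45 FPKM. Its values rest on an estimated 305 to 1031 fragments a library.
Egr2, on chromosome 10 from 67535475 to 67542188, was the least abundant member, at 0.0608, 0.125, 0.135 and 0.170 FPKM in FMT-SP 1 to 4, 0.289, 0.0119, 0.763 and 0.0127 FPKM in FMT-DSS 1 to 4, and 0.170, 0.286, 0.704 and 0.0284 FPKM in FMT-CON 1 to 4. The values in FMT-DSS 2 and FMT-DSS 4 amount to about 1 fragment, which in its longest annotated transcript of 2965 bases equals 0.00905 and 0.00978 FPKM in those libraries. FMT-DSS 3 and FMT-CON 3 were the highest libraries.

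Nr4a1, on chromosome 15 from 101254269 to 101274795, encodes an orphan nuclear receptor. Its level was 10, 12.5, 6.17 and 14.5 FPKM in FMT-SP 1 to 4, 12.5, 8.27, 15.8 and 11.5 FPKM in FMT-DSS 1 to 4, and 7.40, 9.15, 18.2 and 11.2 FPKM in FMT-CON 1 to 4. FMT-CON 3 and FMT-DSS 3 were highest and FMT-SP 3 was lowest. Npas4, on chromosome 19 from 4984355 to 4990316, encodes a neuronal basic helix-loop-helix factor that responds to calcium. It was at 0.920, 1.05, 0.965 and 1.91 FPKM in FMT-SP 1 to 4, 1.53, 0.251, 1.76 and 1.10 FPKM in FMT-DSS 1 to 4, and 1.01, 0.935, 1.96 and 1.77 FPKM in FMT-CON 1 to 4. FMT-DSS 2 stood alone at the low end. Ier2, on chromosome 8 from 84661331 to 84662852, encodes a small nuclear protein of the early response. Its level was 2.85, 4.27, 3.90 and 3.67 FPKM in FMT-SP 1 to 4, 3.70, 5.05, 4.05 and 4.01 FPKM in FMT-DSS 1 to 4, and 4.30, 3.59, 6.24 and 4.67 FPKM in FMT-CON 1 to 4. It had the lowest ratio of highest to lowest library of the 10 genes, 2.19.

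Arc, on chromosome 15 from 74669083 to 74672570, encodes a capsid-forming protein that takes part in the removal of AMPA receptors from synapses. It was the most abundant member and varied more than any other of the 9 tested ones, at 27.9, 37.1, 24.7 and 35.3 FPKM in FMT-SP 1 to 4, 52.5, 4.45, 49.2 and 13.6 FPKM in FMT-DSS 1 to 4, and 19.3, 29.5, 62.7 and 18.8 FPKM in FMT-CON 1 to 4. The 4 FMT-SP libraries lay between 24.7 and 37.1 FPKM, inside the ranges of both other groups. Arc averaged 31.2 ± 5.93 FPKM in FMT-SP, 29.9 ± 24.5 in FMT-DSS and 32.6 ± 20.7 in FMT-CON.

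**Figure D1:**
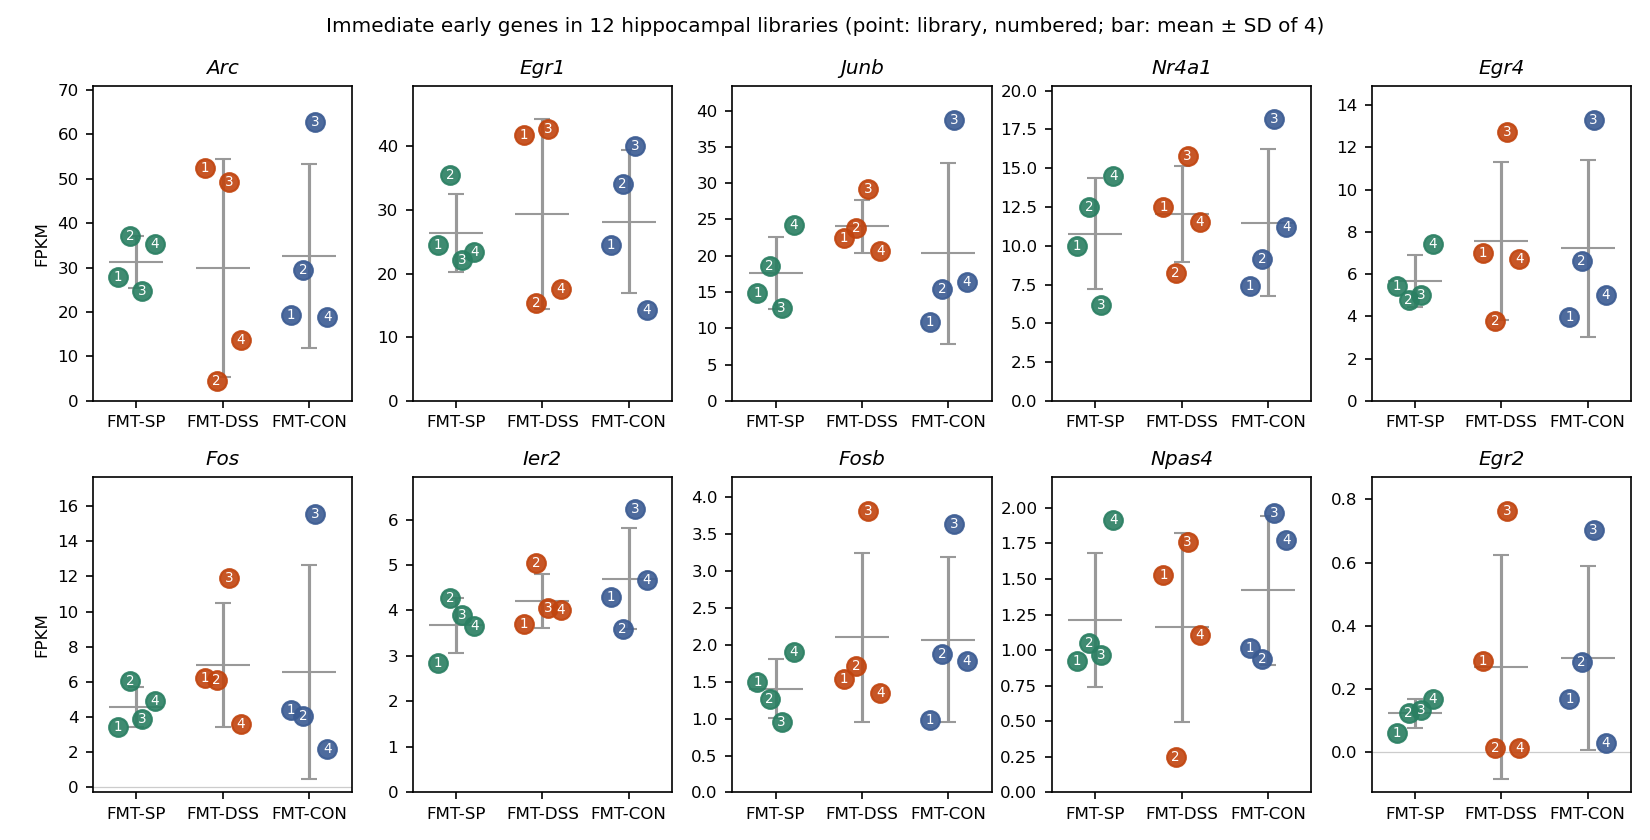
Level of each of the 10 genes in every library in FPKM (y axis, own scale per panel), with FMT-SP, FMT-DSS and FMT-CON from left to right. Points are libraries and bars the mean and SD of 4 libraries; the groups overlap in every panel.

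By mean over the 12 libraries the order of levels was Arc, Egr1, Junb, Nr4a1, Egr4, Fos, Ier2, Fosb, Npas4 and Egr2. Some neighbours in this order held it in every library, which was so for Junb over Nr4a1, Nr4a1 over Egr4, Ier2 over Fosb, and Npas4 over Egr2. Others changed places. Arc exceeded Egr1 in 8 of 12 libraries, Egr1 exceeded Junb in 8, Egr4 exceeded Fos in 8, Fos exceeded Ier2 in 9 and Fosb exceeded Npas4 in 9.

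The members varied widely between libraries of the same group. The ratio of the highest to the lowest library was 14.1 for Arc, 7.81 for Npas4, 7.15 for Fos and between 2.19 (Ier2) and 3.98 (Fosb) for the other 6 tested members, and 64.1 for Egr2. On the log2(FPKM + 1) scale the SD within groups was 1.03 for Arc and 0.70 for Fos, against a median of 0.20 over all tested genes. Arc was more variable than 99.6% of tested genes, Fos than 98.7%, Egr1 than 97.6%, Egr4 than 96.7%, Junb than 95.3%, Nr4a1 than 93.9%, Fosb than 91.9% and Npas4 than 89.0%. Ier2, with an SD of 0.21, was more variable than 54.0%. By group, the median SD of the 9 tested members on that scale was 0.28 in FMT-SP, 0.51 in FMT-DSS and 0.63 in FMT-CON, while over all tested genes it was 0.16 in FMT-SP, 0.22 in FMT-DSS and 0.19 in FMT-CON. The smallest SD was in FMT-SP for 6 of the 9 members and for 52.3% of all tested genes, and the difference in spread between groups was not tested.

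The same libraries recurred at the top. The highest library was FMT-CON 3 for 7 of the 10 members and FMT-DSS 3 for the other 3 (Egr1, Egr2 and Fosb), and these 2 libraries were the highest for 14.0% of all tested genes. They held the 2 top places together for 6 members, namely Fos, Fosb, Junb, Egr2, Egr4 and Nr4a1, and for 2.15% of all tested genes. After centring each of the 9 tested members on its mean over the libraries, the members averaged 0.83 on the log2 scale in FMT-CON 3 and 0.63 in FMT-DSS 3. The lowest average was -0.47 in FMT-DSS 2, the lowest library for Arc, Egr4, Npas4 and Egr2. FMT-SP libraries averaged -0.34 to 0.15, and none of them was the highest library of any member. FMT-CON 3 is the library with pituitary transcripts and FMT-DSS 3 the one with the highest striatal sum; whether these move the members was not tested.

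**Figure D2:**
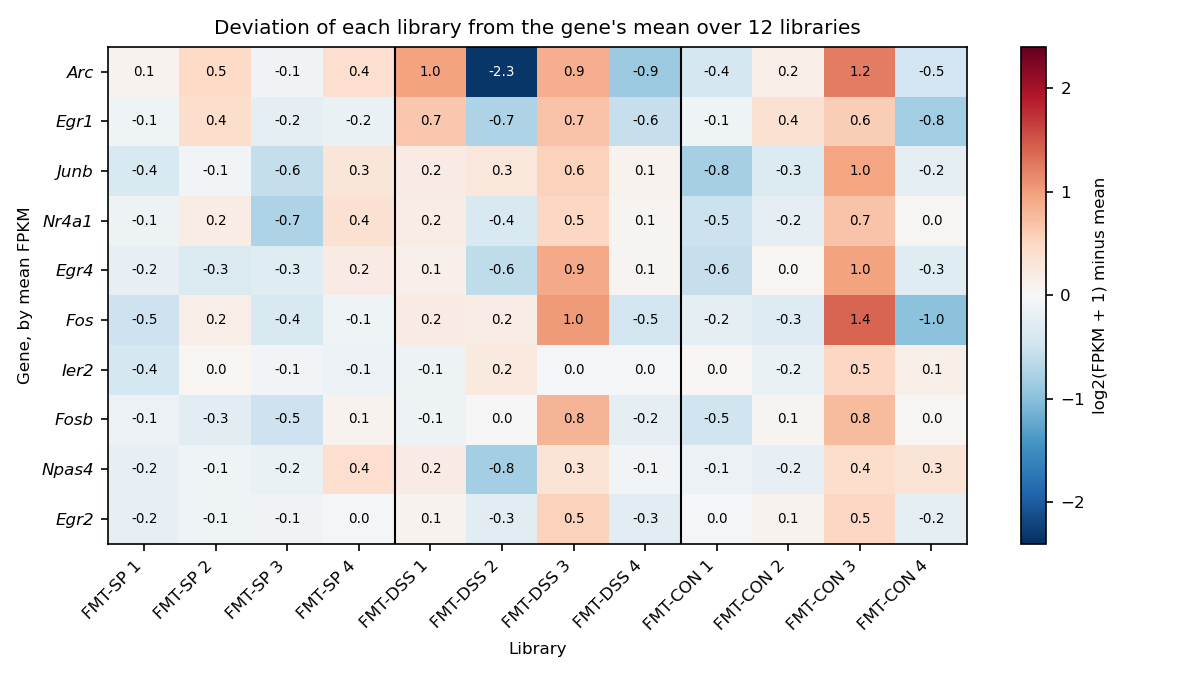
Deviation of each library (x axis, FMT-SP, FMT-DSS and FMT-CON from left to right) from the mean of each gene over 12 libraries (y axis, ordered by level), as a difference in log2(FPKM + 1) shown by colour and number. FMT-CON 3 is above the mean for all 10 genes and FMT-DSS 3 for 9 of them, all but Ier2, and FMT-DSS 2 is far below it for Arc.

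FMT-DSS 2 was not low for every member. Its Fos level of 6.12 FPKM and Junb level of 23.8 FPKM were within the ranges of the other libraries, while Arc at 4.45 and Npas4 at 0.251 FPKM were the lowest of 12. The ratio of Arc to Fos was 0.727 in FMT-DSS 2 and 3.81 to 8.66 in the other 11 libraries. The ratio of Npas4 to Fos was 0.0411 in FMT-DSS 2 and 0.126 to 0.814 elsewhere, whereas the ratio of Junb to Fos, at 3.89, lay inside the span of all libraries, 2.46 to 7.56. FMT-DSS 2 also had the lowest sum of 8 dentate granule cell markers, 91.2 FPKM in a span of 108 to 133 in FMT-SP, 91.2 to 127 in FMT-DSS and 116 to 151 in FMT-CON. In FMT-DSS 4, whose ratio of Arc to Fos was 3.81, that sum was 106 FPKM. It was 97.05 FPKM in FMT-DSS 1, where Arc was at 52.5 FPKM, the second highest of 12. The sum of 7 CA1 markers was highest in FMT-DSS 2, at 253 FPKM. It was 145.5 to 210 FPKM in FMT-SP, 187 to 253 in FMT-DSS and 111.5 to 219 in FMT-CON. Single markers went both ways between FMT-DSS 2 and FMT-DSS 4, with Prox1 at 7.58 and 5.97 FPKM and C1ql2 at 15.0 and 24.9 FPKM. The highest sum of 12 glucocorticoid-responsive genes, 431 FPKM, was likewise in FMT-DSS 2, with 157 to 248 in FMT-SP, 256 to 431 in FMT-DSS and 147 to 241 in FMT-CON. The part of any of these sums in the Arc level was not tested.

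**Figure D3:**
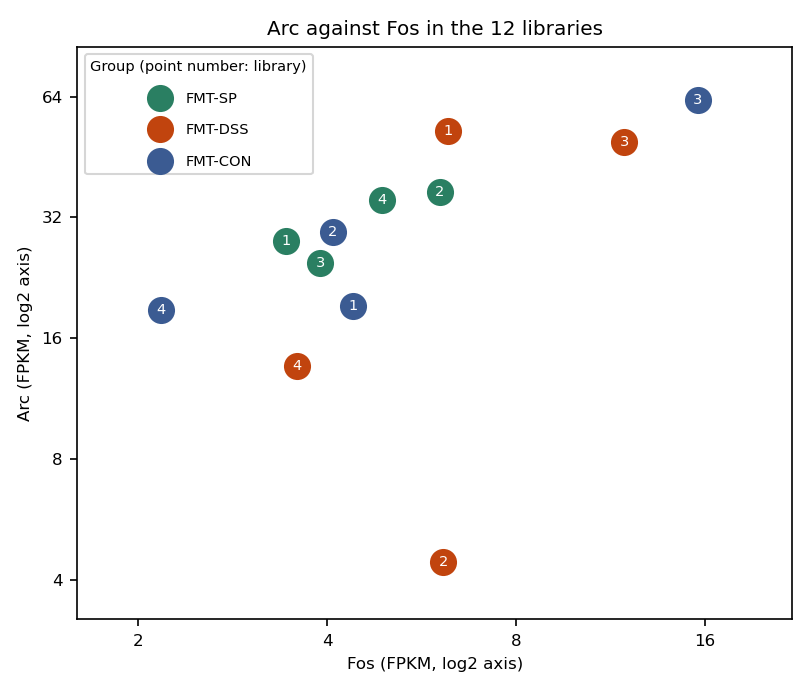
Arc level against Fos level in each library, both in FPKM on log axes, with points marked by group. FMT-DSS 2, at 4.45 FPKM of Arc and 6.12 FPKM of Fos, lies apart from the other 11 libraries.

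The first comparison, FMT-DSS against FMT-CON, sets transplants labelled DSS beside those labelled CON. Of the 9 tested members, 0 passed an adjusted p of 0.05 in limma, as did 0% of all tested genes. At an unadjusted p under 0.05 there were 0 members and 4.06% of all genes, and 0 members had groups that did not overlap, against 1.75% of all genes. Means on the log2(FPKM + 1) scale were higher in FMT-DSS for 6 of 9 members, with no test on that count, and for 40.3% of all genes. The median log2 change of the members was 0.02 and that of all tested genes -0.03; the members' median was -0.18 without FMT-DSS 3, -0.12 without FMT-CON 1, -0.050 without FMT-CON 4, 0.25 without FMT-DSS 2, 0.24 without FMT-CON 3, 0.11 without FMT-DSS 4 and 0.072 without FMT-DSS 1. Junb averaged 24.0 ± 3.67 FPKM in FMT-DSS against 20.3 ± 12.5 FPKM in FMT-CON, with a log2 change of 0.38 (95% interval -0.28 to 1.04, limma adjusted p = 0.971). Without FMT-CON 3, the highest library of both genes, it was 0.73, and 0.74 for Fos. Both had an unadjusted limma p under 0.05 in that fit, 1 of 12 that leave out a library, and neither passed an adjusted p. The count of all genes under 0.05 also moved between such fits. It was 245 of 12541 without FMT-DSS 2 and 1194 of 12545 without FMT-DSS 3. Fos had a log2 change of 0.27 (-0.66 to 1.2) over all libraries, and Arc one of -0.47 (-1.82 to 0.89, limma adjusted p = 0.979). Without FMT-DSS 2 the change of Arc was 0.19, and that of Npas4 was 0.04 instead of -0.20. The other members were at 0.02 (Fosb), 0.01 (Egr1), 0.08 (Egr4), 0.10 (Nr4a1) and -0.12 (Ier2).

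FMT-SP against FMT-DSS sets libraries labelled SP beside those labelled DSS, and shares its FMT-DSS libraries with the first comparison. Since donor, route and time of substance P are not stated, what substance P adds cannot be told apart from other differences. Again 0 of 9 members and 0% of all genes passed an adjusted p of 0.05. At an unadjusted p under 0.05 there were 0 members and 2.5% of all genes (314 genes, and 885 with the replicate number as a block), and 0 members had groups apart, against 1.27% of all genes. Means on the log2 scale were higher in FMT-SP for 2 of 9 members and for 58.9% of all genes. The median change was -0.17 for the members and 0.03 for all tested genes, and the members' median was -0.036 once FMT-DSS 3 was left out and -0.32 once either FMT-DSS 2 or FMT-SP 4 was. Junb averaged 17.6 ± 5.0 FPKM in FMT-SP against 24.0 ± 3.67 FPKM in FMT-DSS, with a log2 change of -0.45 (95% interval -1.11 to 0.21, limma adjusted p = 0.999). Fos changed by -0.44 (-1.37 to 0.50), Fosb by -0.32 (-0.90 to 0.26), Egr4 by -0.28 (-1.0 to 0.45), Nr4a1 by -0.17, Ier2 by -0.16 and Egr1 by -0.03, all with a limma adjusted p of 0.999. Arc and Npas4 had positive values of 0.57 (-0.79 to 1.92) and 0.07, which were -0.10 and -0.17 without FMT-DSS 2.

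FMT-SP against FMT-CON shares libraries with both other comparisons. Here too 0 of 9 members and 0% of all genes passed an adjusted p of 0.05, and 0 members and 0.358% of all genes had an unadjusted p under 0.05. No member had groups apart, against 0.494% of all genes, and on the log2(FPKM + 1) scale 1 of 9 members, Arc, had a higher mean in FMT-SP, against 46.7% of all genes. The median change was -0.13 for the members and -0.01 for all tested genes. The members' median was 0.16 without FMT-CON 3, and it ran from -0.27 without FMT-CON 4 to -0.066 without FMT-SP 1 when any other library was left out. Ier2 averaged 3.67 ± 0.603 FPKM in FMT-SP against 4.70 ± 1.12 FPKM in FMT-CON, with a log2 change of -0.28 (95% interval -0.60 to 0.05, limma adjusted p = 1.0). Fosb was at -0.30 (-0.88 to 0.28), Egr4 at -0.20, Fos at -0.17, Npas4 at -0.13, Junb at -0.08, Nr4a1 at -0.07, and Egr1 at -0.02. Arc was at 0.10 (-1.25 to 1.45) on this scale, while its mean in FPKM was lower in FMT-SP, at 31.2, than in FMT-CON, at 32.6, so its direction depends on the scale. Without FMT-CON 3 and FMT-DSS 3, an alternative chosen after the data were seen, Fos was at 0.31, Junb at 0.27, Egr1 at 0.17, Nr4a1 at 0.16 and Egr4 at 0.11.

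**Figure D4:**
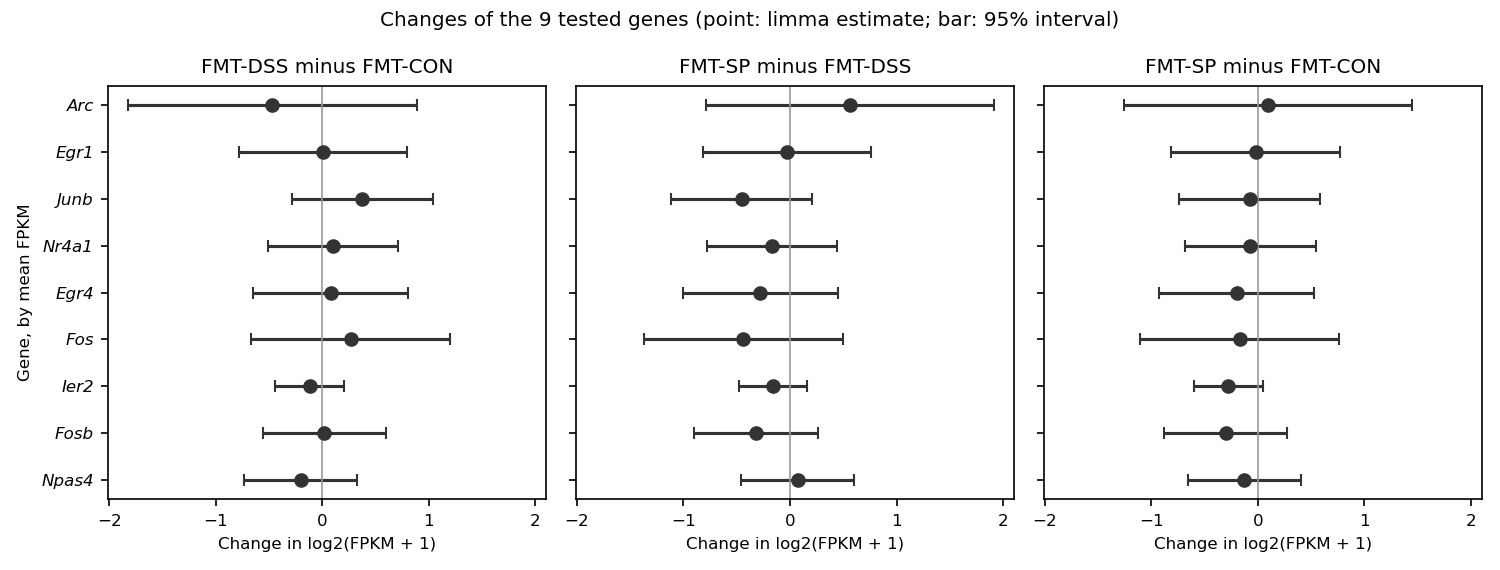
Log2 change of the 9 tested genes on the log2(FPKM + 1) scale (x axis) with 95% intervals from limma, in a panel for each of the 3 comparisons. Every interval spans 0, and those of Arc are the widest.

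Intervals of the members were wide: the interval of a typical tested gene ran 0.31 to either side of its value, while that of Arc in the first comparison spanned -1.82 to 0.89. A missed threshold therefore does not show that the groups were alike. Egr2, below the filter, averaged 0.123 ± 0.0455 FPKM in FMT-SP, 0.269 ± 0.354 in FMT-DSS and 0.297 ± 0.291 in FMT-CON. Two-sided exact permutation tests over 70 assignments, whose smallest p is 0.0286, gave 0.886 for FMT-DSS against FMT-CON, 0.6 for FMT-SP against FMT-DSS and 0.286 for FMT-SP against FMT-CON.

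Across the 12 libraries the members' levels moved together in part. Of the 45 pairs of members, 43 had a Pearson correlation above 0 on the log2(FPKM + 1) scale, with a median r of 0.61, and the median was 0.63 after removing the group means. Of member pairs, 40.0% reached an r of 0.7, against 8.30% of all pairs of tested genes. Egr1 and Arc had r = 0.84 (permutation p = 0.00012, adjusted over the 45 pairs 0.0054) and rho = 0.90 (permutation p = 0.00021, adjusted 0.00945), and r was 0.79 without FMT-DSS 3 and FMT-DSS 1, the libraries farthest from the median of Egr1. Junb and Nr4a1 had r = 0.84 (permutation p = 0.00087, adjusted 0.00979) and rho = 0.82 (permutation p = 0.00176, adjusted 0.0198), and r was 0.72 without FMT-CON 3 and FMT-CON 1. Fos and Fosb had r = 0.74 (permutation p = 0.00926, adjusted 0.0235) but rho = 0.45 (permutation p = 0.141, adjusted 0.219), and without FMT-CON 3 and FMT-DSS 3 r was -0.06, so that relation rests on those libraries. Fos and Arc had r = 0.47 (permutation p = 0.121, adjusted 0.175) and rho = 0.66 (permutation p = 0.0234, adjusted 0.0624), with an r of 0.07 without FMT-CON 3 and FMT-DSS 3 and of 0.83 without FMT-DSS 2.
Ier2 stood apart from the others, with a median r of 0.28. By r, 20 pairs passed an adjusted permutation p of 0.05, by rho 7 did, and without FMT-CON 3 and FMT-DSS 3 the median r of the 45 pairs was 0.18. All pairs share the same libraries, and so their depth and tissue makeup.

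**Figure D5:**
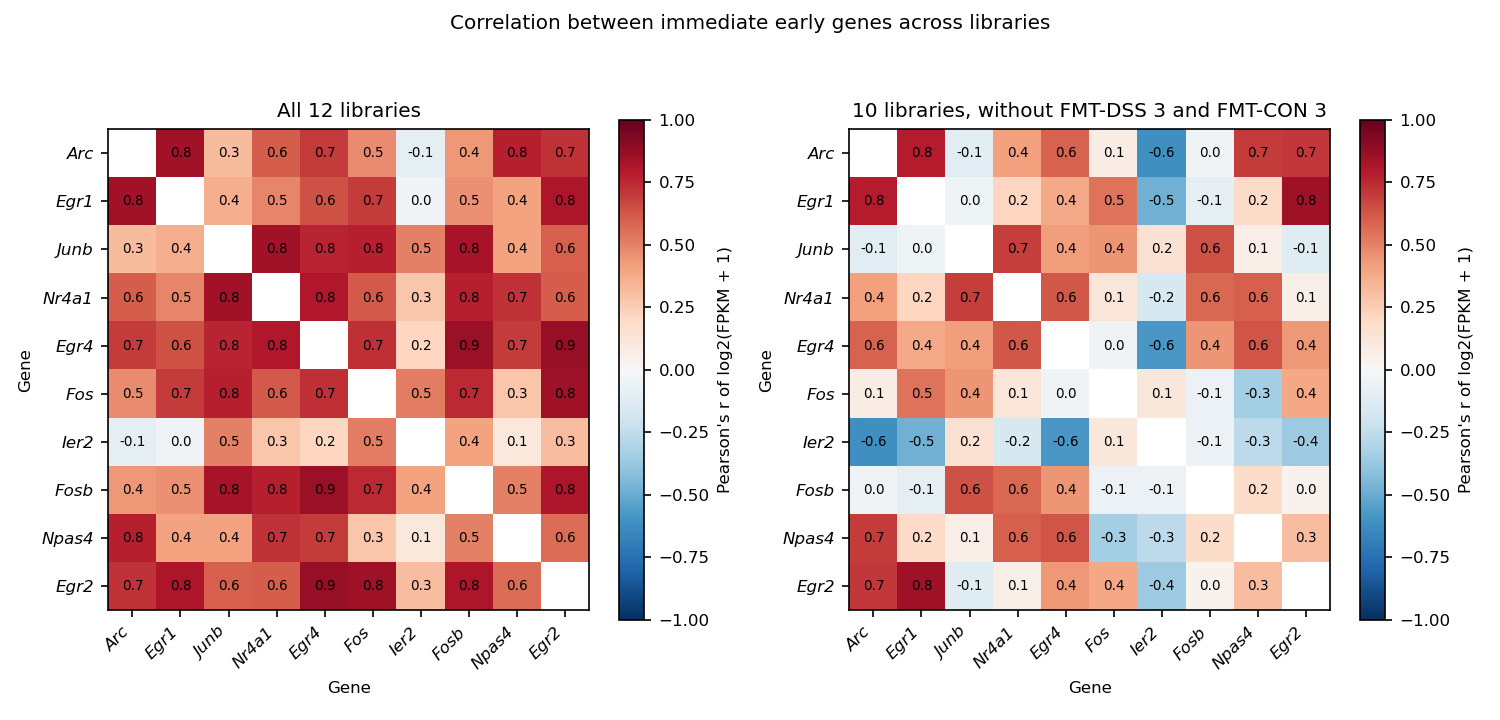
Pearson correlation between members over 12 libraries (left) and without FMT-CON 3 and FMT-DSS 3 (right), on log2(FPKM + 1), shown by colour and number. The median of the 45 pairs is 0.61 on the left and 0.18 on the right.

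Outside the members, the genes most like them were ranked by the correlation of log2(FPKM + 1) with the mean of the 9 centred members over the 12 libraries. Symbols without a gene name (Gm, Rik, LOC) were left out of the genes named here. The ranking was not tested against chance. The highest were Frmd6 (r = 0.88), Per2 (0.87), Polr1g (0.85), Rnf19a (0.85), Ift56 (0.83) and Armt1 (0.83), among 15 of 12550 other tested genes (0.120%) at 0.8 or above. Per2, a repressor of the circadian clock, ranged from 4.996 to 12.4 FPKM with its highest level in FMT-DSS 3, and its r was 0.81 without FMT-CON 3 and FMT-DSS 3. Frmd6 spanned only 3.51 to 5.48 FPKM. The lowest were Nrde2 (-0.83), Ctdp1 (-0.82) and Txnrd3 (-0.82), among 4 genes at -0.8 or below.

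Other lists of related genes were described beside the members, 6 in number, and 0 genes of any of them passed an adjusted p of 0.05 in any comparison. Of 27 tested other early-response genes, 19 had a higher mean in FMT-DSS than in FMT-CON (median log2 change 0.17), 8 a higher mean in FMT-SP than in FMT-DSS (-0.15) and 10 a higher mean in FMT-SP than in FMT-CON (-0.04), where the shares over all tested genes were 40.3%, 58.9% and 46.7% in the same order. In that list 6 genes had an unadjusted p under 0.05 in FMT-DSS against FMT-CON, 5 in FMT-SP against FMT-DSS and 0 in FMT-SP against FMT-CON, beside 4.06%, 2.5% and 0.358% of all tested genes. Per1, a clock gene induced by CREB and by glucocorticoids, averaged 7.03 ± 1.52 FPKM in FMT-SP, 12.1 ± 4.02 in FMT-DSS and 7.26 ± 0.650 in FMT-CON. Its highest values were 16.4 FPKM in FMT-DSS 2 and 14.4 FPKM in FMT-DSS 4, where the centred members averaged -0.47 and -0.23. Plk2, a kinase of synaptic scaling, averaged 62.7 ± 5.29 FPKM in FMT-SP, 71.5 ± 8.53 in FMT-DSS and 55.5 ± 7.32 in FMT-CON, with a log2 change of 0.36 in FMT-DSS against FMT-CON (limma adjusted p = 0.966). Myc, a growth regulator, averaged 1.85 ± 0.0281 FPKM in FMT-SP, 2.19 ± 0.342 in FMT-DSS and 1.57 ± 0.119 in FMT-CON.

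Among 5 tested FOS and JUN partners outside the members, 4 had a higher mean in FMT-DSS than in FMT-CON, 2 in FMT-SP than in FMT-DSS and 4 in FMT-SP than in FMT-CON. For this and each list that follows, the shares over all tested genes were 40.3%, 58.9% and 46.7% in the same order. Maff, a small MAF factor, was at 4.21 FPKM in FMT-DSS 2 and 5.93 FPKM in FMT-DSS 4 and at 0.264 to 0.916 FPKM in the other 10 libraries. Its log2 change was 1.11 in FMT-DSS against FMT-CON (SE 0.42, limma adjusted p = 0.966) and -0.98 in FMT-SP against FMT-DSS. Mafk, of the same family, averaged 1.19 ± 0.179 FPKM in FMT-SP, 1.92 ± 0.803 in FMT-DSS and 1.18 ± 0.182 in FMT-CON. Its FMT-DSS values were 2.85 and 2.34 FPKM in FMT-DSS 2 and 4, and 1.18 and 1.33 FPKM in FMT-DSS 1 and 3, within the range of the other groups. Jun, the founding JUN gene, was at 23.4 ± 2.49 FPKM in FMT-SP, 19.9 ± 4.29 in FMT-DSS and 21.8 ± 4.25 in FMT-CON. Of 5 EGR and NR4A relatives and co-repressors, 3 had a higher mean in FMT-DSS than in FMT-CON, 4 in FMT-SP than in FMT-DSS and 4 in FMT-SP than in FMT-CON. The mean of this list followed that of the members across the 12 libraries with r = 0.81, as a description. Nr4a3, an orphan receptor related to Nr4a1, was at 7.55 ± 1.04 FPKM in FMT-SP, 6.74 ± 2.69 in FMT-DSS and 7.48 ± 2.75 in FMT-CON, highest in FMT-CON 3 at 10.7 and FMT-DSS 3 at 10.1 FPKM. The co-repressors of EGR factors Nab1 and Nab2 had log2 changes of -0.19 and 0.15 in FMT-DSS against FMT-CON.

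Of 17 tested activity-induced effectors and late-response genes, 7 had a higher mean in FMT-DSS than in FMT-CON, 13 in FMT-SP than in FMT-DSS and 10 in FMT-SP than in FMT-CON. These counts, and those of the next 2 lists, stand beside 40.3%, 58.9% and 46.7% of all tested genes. Nrn1, a neuritogenic surface protein, averaged 112 ± 15.3 FPKM in FMT-SP, 92.4 ± 5.32 in FMT-DSS and 114 ± 11.4 in FMT-CON. Bdnf, a neurotrophin, averaged 5.07 ± 0.553 FPKM in FMT-SP, 3.77 ± 0.996 in FMT-DSS and 4.93 ± 1.01 in FMT-CON, and was lowest in FMT-DSS 2 and 4, at 3.03 and 2.79 FPKM, while FMT-DSS 1 and 3 were at 4.72 and 4.52 FPKM. Vgf, a secreted neuropeptide precursor, averaged 36.8 ± 2.57 FPKM in FMT-SP, 31.6 ± 4.19 in FMT-DSS and 36.1 ± 3.65 in FMT-CON. These differences did not pass the threshold.
Of 19 factors that act on the members' promoters, 11 had a higher mean in FMT-DSS than in FMT-CON, 11 in FMT-SP than in FMT-DSS and 13 in FMT-SP than in FMT-CON. Mrtfa, a coactivator of serum response factor, averaged 15.9 ± 1.92 FPKM in FMT-SP, 19.7 ± 3.17 in FMT-DSS and 15.1 ± 2.33 in FMT-CON. Crem and Crtc1, a CREB relative and a CREB coactivator, had log2 changes of -0.22 and 0.14 in FMT-DSS against FMT-CON. Of 18 kinases and phosphatases between calcium, ERK and the nucleus, 12 had a higher mean in FMT-DSS than in FMT-CON, 12 in FMT-SP than in FMT-DSS and 14 in FMT-SP than in FMT-CON. Rps6ka1, a kinase downstream of ERK, was at 3.46 ± 0.869 FPKM in FMT-SP, 3.03 ± 0.348 in FMT-DSS and 4.23 ± 0.755 in FMT-CON. Camk2b and Map2k2, a calcium-dependent kinase and the kinase above ERK, had log2 changes of 0.14 and -0.23 in FMT-DSS against FMT-CON.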

How the data were processed

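The 12 hippocampal RNA-seq libraries were grouped by their titles, 4 to a group. The values are FPKM per gene and library as deposited by the authors. The submitters' processing notes name HISAT2 2.0 and the build mm8; for the counter and annotation the sources used here say nothing. Depth was estimated from the steps of low FPKM values in 4713 genes with a single transcript in GENCODE of GRCm38, where 38.9% to 41.6% lay within 0.05 of a whole fragment, against 10% by chance, so counts were not recovered. Positions come from that annotation, matched by symbol.

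Genes averaging 1 FPKM or more were tested as log2(FPKM + 1) with limma 3.58.1 in R 4.3.3, all libraries in 1 model with a mean-variance trend, two-sided, with Benjamini-Hochberg adjustment over all tested genes. The steps were tested on simulated data. Correlations used 100000 permutations. The members and gene lists were chosen with earlier results of these data known. Named beside the members were up to 3 genes of smallest p per list, and the genes most and least like the members' mean, leaving out symbols without a gene name. Deviations of same-numbered libraries correlated with r of 0.11 to 0.69 between FMT-SP and FMT-DSS. The lowest, for number 3, was under the 0.20 of FMT-SP 3 with an FMT-DSS library of another number. Same-numbered libraries had r of 0.01 to 0.72 between FMT-DSS and FMT-CON and -0.45 to 0.84 between FMT-SP and FMT-CON. The main model held no pairing by number, which entered only as a block in an alternative. Alternatives changed the pseudocount, filter, scaling, weights, covariates, block or libraries; leaving out FMT-CON 3 and FMT-DSS 3 was added after the data were seen.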

Additional observations from a re-analysis of the deposited data

Results flagged for a closer look

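Each of the 10 genes was examined in each of the 3 groups for a library far from the other 3. Dixon's test was used on FPKM, not on log2(FPKM + 1), in 30 groups in all, of which chance flags about 5%. Npas4 in FMT-SP 4 was at 1.91 FPKM, against 0.920 to 1.05 FPKM in the other FMT-SP libraries. Fosb in FMT-DSS 3 was at 3.81 FPKM, against 1.35 to 1.72 FPKM in the other FMT-DSS libraries. Fos in FMT-CON 3 was at 15.6 FPKM, against 2.18 to 4.40 FPKM in the other FMT-CON libraries.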

How the results depend on the processing

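No member passed an adjusted p of 0.05 under any alternative run, and of 675 alternative values of single members 615 kept their sign and 60 did not. An unadjusted p under 0.05 was reached by 10 of the 675. These were Fos and Junb without FMT-CON 3 and Junb without FMT-CON 3 and FMT-DSS 3 in FMT-DSS against FMT-CON, and Junb without FMT-CON 3 and in the fit on 8 libraries in FMT-SP against FMT-DSS. In FMT-SP against FMT-CON they were Fosb, Egr4 and Ier2 with array weights and Ier2 without FMT-CON 2 and with the covariates. With array weights 1146 of all 12559 tested genes were under 0.05 in that comparison. In the fit on 8 libraries 244 were in FMT-SP against FMT-DSS. No share over all genes is given for the other fits named, so these members cannot be set apart from genes in general. The pseudocount of 0.1, median-ratio rescaling and quantile normalization turned no sign. Both other filters, the robust estimate, the fit on 8 libraries and the replicate block leave differences of group means unchanged. They could therefore turn no sign, nor could leaving out a library of the group not compared. Such values are counted in the 615. Under the replicate block the count of genes called was 0 in all 3 comparisons, as without it, so pairing by number changed no call. With the block 1274 genes had an unadjusted p under 0.05 in FMT-DSS against FMT-CON and 310 in FMT-SP against FMT-CON, where without it there were 510 and 45.

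Rescaling without mitochondrial genes put Egr1 at 0.0064 in FMT-SP against FMT-CON. Array weights gave Fos -0.045, Fosb -0.10, Egr4 -0.090 and Nr4a1 -0.029 in FMT-DSS against FMT-CON, Arc -0.11 and Npas4 -0.21 in FMT-SP against FMT-DSS, and Arc -0.35 in FMT-SP against FMT-CON, where 1146 genes had an unadjusted p under 0.05. Without FMT-DSS 2 and FMT-DSS 4, Arc was at 0.80 and Npas4 at 0.15 in FMT-DSS against FMT-CON, and Arc at -0.70, Npas4 at -0.28 and the members' median at -0.55 in FMT-SP against FMT-DSS. With striatum and choroid plexus marker means as covariates, Egr1 was at -0.0056 in FMT-DSS against FMT-CON, 0.21 in FMT-SP against FMT-DSS and 0.20 in FMT-SP against FMT-CON, and 14 genes, none of them a member, passed the threshold in FMT-SP against FMT-DSS. Without FMT-CON 3 and FMT-DSS 3, Egr1 was at -0.021 and Ier2 at 0.015 in FMT-DSS against FMT-CON, and Egr1 at 0.20 in FMT-SP against FMT-DSS. In FMT-SP against FMT-CON the same alternative gave 0.31 for Fos, 0.27 for Junb, 0.17 for Egr1, 0.11 for Egr4 and 0.16 for Nr4a1. Array weights put the members' median at -0.09 in FMT-DSS against FMT-CON and -0.48 in FMT-SP against FMT-CON. Leaving out FMT-CON 3 and FMT-DSS 3 put it at 0.16 in FMT-SP against FMT-CON. The causes were not tested.

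With each library left out in turn, changes in FMT-DSS against FMT-CON ran from -0.91 to 0.19 for Arc, -0.27 to 0.26 for Egr1, -0.18 to 0.39 for Egr4, -0.050 to 0.74 for Fos, -0.21 to 0.24 for Fosb, -0.22 to 0.0029 for Ier2, -0.34 to 0.042 for Npas4 and -0.068 to 0.33 for Nr4a1. In FMT-SP against FMT-DSS they ran from -0.10 to 1.003 for Arc, -0.28 to 0.20 for Egr1, -0.17 to 0.21 for Npas4 and -0.32 to 0.051 for Nr4a1. In FMT-SP against FMT-CON they ran from -0.10 to 0.46 for Arc, -0.30 to 0.17 for Egr1, -0.40 to 0.11 for Egr4, -0.49 to 0.31 for Fos, -0.31 to 0.27 for Junb and -0.24 to 0.16 for Nr4a1. The changes that did not turn sign in these fits still moved: Junb from 0.15 to 0.73 in the first comparison, Fos from -0.67 to -0.17, Fosb from -0.43 to -0.087, Junb from -0.61 to -0.32, Egr4 from -0.52 to -0.017 and Ier2 from -0.22 to -0.069 in the second, and Fosb from -0.49 to -0.079, Npas4 from -0.27 to -0.021 and Ier2 from -0.37 to -0.16 in the third. With 4 libraries a group the intervals printed with the comparisons bound what could be seen, and Egr2 rests on about 1 fragment in 2 libraries.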
